A study of Mus musculus with 16 samples.

Results

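Voltage-gated calcium channels carry auxiliary subunits beside the pore, and the levels of 7 genes for such subunits were measured in cortical parvalbumin (PV) interneurons. They are Cacna2d1, Cacna2d2 and Cacna2d3, which encode α2δ subunits, and Cacnb1, Cacnb2, Cacnb3 and Cacnb4, which encode β subunits. The genes were chosen by name, and all 7 were found among the 54532 genes of the count table. The altered genotype was PV-Cre;lsl-eGFP-GluA2 (7 libraries, called eGFP-GluA2 here), in which Cre made in PV cells switches on GluA2, an AMPA receptor subunit, joined to green fluorescent protein. The control genotype was PV-Cre;lsl-eGFP (9 libraries, called eGFP), which carry the same Cre and express the fluorescent protein alone. All mice were adult, with an age of 113.1 ± 11.6 days over the whole study (the kind of error is not given); the sources used here tie no library to an age, a sex, a litter or a batch. Cortex was digested, fixed in 4% paraformaldehyde for 15 min and triturated, and fluorescent nucleated cells were sorted by flow cytometry for bulk RNA-seq. The labels give the purpose as testing what follows when calcium-permeable AMPA receptors are removed from PV interneurons; the promoter upstream of the loxP-flanked stop is not given there.

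AMPA receptors that lack GluA2 let calcium in, and voltage-gated calcium channels, beside NMDA receptors, are another main entry route for calcium at the neuronal membrane. The pore is a single large α1 subunit; a cytoplasmic β subunit binds the loop between its first and second repeats, promotes trafficking to the membrane and tunes gating. An α2δ subunit is an extracellular, membrane-anchored glycoprotein, cut from 1 precursor into linked α2 and δ peptides, that raises the number of channels at the surface and at the presynaptic active zone. In fast-spiking PV cells, calcium for transmitter release enters largely through P/Q-type channels.

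The libraries held 7454165 to 15462544 counts. Gria2, the gene for GluA2, had 142 to 300 TPM (transcript abundance scaled for length) in eGFP-GluA2 libraries, against 57.2 to 108 TPM in eGFP libraries, without overlap. In CPM (counts scaled to library size by the TMM method) the groups overlapped, with 670 to 1193 in eGFP-GluA2 and 444 to 781 in eGFP libraries. Gria2 itself did not pass the edgeR test used for the 7 genes (log2 fold change 0.71 ± 0.16, adjusted p 1.00) and passed with the background described next as a covariate (adjusted p 0.012). The 10 PV interneuron markers were all detected, and their summed level ran from 4463 to 11849 CPM in eGFP-GluA2 libraries and from 4433 to 12426 CPM in eGFP libraries. The libraries differed in a background that is measured here as the summed CPM of 1953 olfactory and vomeronasal receptor genes, which cortical interneurons are not known to use. It was low in 5 libraries (97.5 to 182 CPM, 2 eGFP-GluA2 and 3 eGFP), intermediate in 5 (750 to 1417 CPM, 3 eGFP-GluA2 and 2 eGFP) and high in 6 (2112 to 4594 CPM, 2 eGFP-GluA2 and 4 eGFP). In bulk RNA from sorted cells, fewer cells of a type and less RNA per cell cannot be told apart.

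The promoters of Cacna2d2 and Cacna2d1, the members of highest and lowest level among the 3 α2δ genes, and of Cacnb4, the β gene of highest level, are shown because the members at both ends of the range share a very CG-rich start. Each runs 5′ to 3′ from 250 bases before to 50 bases after a RefSeq transcript start (GRCm38.p6), with CG dinucleotides in capitals. The Cacna2d2 promoter lies at chr9:107399630-107399929 on the plus strand, that of Cacna2d1 at chr5:15934441-15934740 on the plus strand, and the CG-richest of 3 promoters listed for Cacnb4 at chr2:52676094-52676393 on the minus strand.
Cacna2d2: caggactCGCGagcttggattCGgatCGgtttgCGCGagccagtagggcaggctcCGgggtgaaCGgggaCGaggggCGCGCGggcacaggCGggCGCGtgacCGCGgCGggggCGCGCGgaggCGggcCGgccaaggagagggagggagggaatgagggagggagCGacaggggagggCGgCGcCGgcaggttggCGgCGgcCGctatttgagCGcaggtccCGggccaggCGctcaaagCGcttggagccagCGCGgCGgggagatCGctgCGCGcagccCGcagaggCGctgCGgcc
Cacna2d1: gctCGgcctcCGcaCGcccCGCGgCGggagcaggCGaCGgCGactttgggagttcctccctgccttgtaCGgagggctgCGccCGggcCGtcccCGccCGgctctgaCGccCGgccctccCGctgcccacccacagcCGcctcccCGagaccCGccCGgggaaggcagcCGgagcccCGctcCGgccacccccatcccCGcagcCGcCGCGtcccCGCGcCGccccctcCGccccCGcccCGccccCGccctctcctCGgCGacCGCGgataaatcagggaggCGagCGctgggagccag
Cacnb4: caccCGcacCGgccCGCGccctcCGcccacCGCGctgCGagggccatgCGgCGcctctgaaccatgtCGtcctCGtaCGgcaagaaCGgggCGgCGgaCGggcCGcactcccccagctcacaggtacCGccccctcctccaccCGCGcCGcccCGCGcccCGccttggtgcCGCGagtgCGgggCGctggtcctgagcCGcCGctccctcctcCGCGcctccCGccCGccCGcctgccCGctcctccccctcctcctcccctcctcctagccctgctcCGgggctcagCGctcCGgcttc
The Cacna2d2 promoter holds 43 CG dinucleotides, that of Cacna2d1 holds 42 and that of Cacnb4 holds 40, against a median of 7 over 32851 promoters of the same length. All 7 genes matched the promoter table, and the CG-richest promoter of each held from 29 (Cacnb3) to 43 (Cacna2d2). The poorest promoter of each β gene held 3 (Cacnb1), 4 (Cacnb2), 5 (Cacnb4) or 7 (Cacnb3), none above that median. The median is over every promoter, not over the richest of each gene. Of the 12 promoters of the 7 genes, 0 held TATAAA on either strand, which 13.6% of all promoters hold, and 0 held the cyclic AMP response element TGACGTCA, which 1.79% hold. Its first 5 bases, TGACG, were found on either strand in 2 of the 12 (Cacna2d1 and Cacnb2), against 20.8% of all promoters. These matches are descriptions of letters in the window.

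Levels of different genes were compared as TPM, which is scaled for transcript length. Cacnb4 had the highest level of the 7, at 94.9 ± 19.3 TPM in eGFP-GluA2 libraries (SD, n = 7) and 79.8 ± 20.6 TPM in eGFP libraries (SD, n = 9). Cacnb4 encodes β4, whose loss gives the lethargic mouse its ataxia and absence seizures. Cacna2d2 came second, at 48.5 ± 14.0 TPM in eGFP-GluA2 and 40.0 ± 6.86 TPM in eGFP libraries. Its product α2δ-2 is missing in the ducky mouse, which is also ataxic and epileptic, and it is well known from cerebellar Purkinje cells. The other 5 lay lower, and their order was Cacnb2, Cacnb3, Cacnb1, Cacna2d3 and Cacna2d1 in both groups. Among all 26257 genes tested, ranked by mean TPM, Cacnb4 was number 456, Cacna2d2 number 1220 and Cacna2d1 number 12329.

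**Figure D1:**
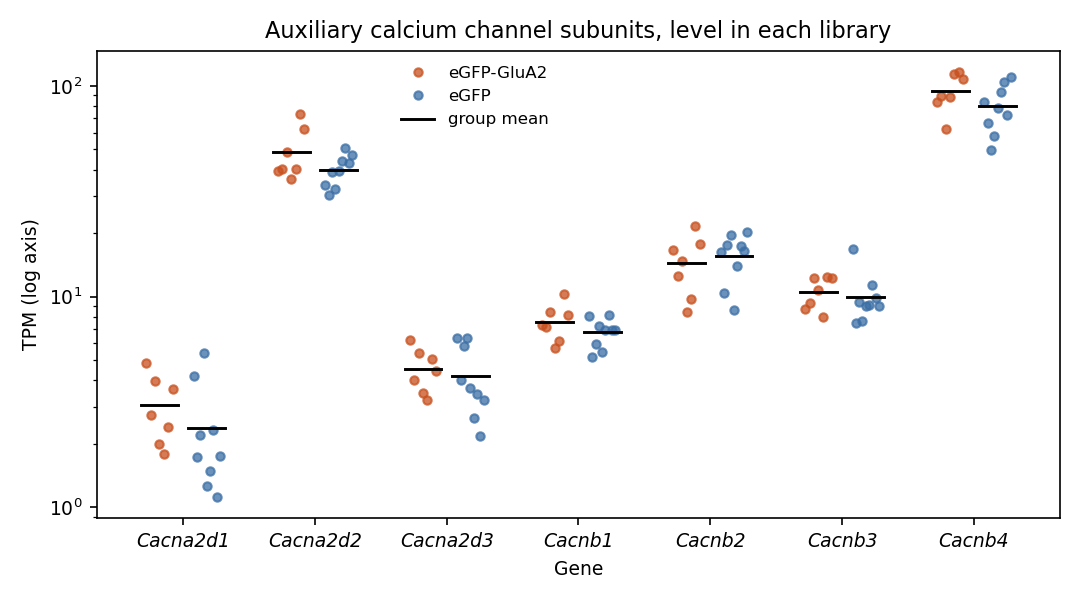
Level of each of the 7 subunit genes in every library, as TPM on a log axis; each point is a library, eGFP-GluA2 left of eGFP for each gene, and black bars mark group means. Cacnb4 and Cacna2d2 lie above the other 5 genes, from Cacnb2 (14.5 and 15.6 TPM) down to Cacna2d1 (3.05 and 2.39 TPM), and the groups overlap for every gene.

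The order was the same within nearly every library. Cacnb4 was above Cacna2d2 in 16 of 16 libraries, with a ratio of the group means of 1.96 in eGFP-GluA2 and 1.99 in eGFP libraries, although the ranges of both genes over libraries overlapped. The step from Cacna2d2 down to Cacnb2 was the only one between neighbours at which the ranges over libraries did not overlap, by a factor of 3.36 in eGFP-GluA2 and 2.56 in eGFP libraries. Cacnb2 was above Cacnb3 in 6 of 7 eGFP-GluA2 and 7 of 9 eGFP libraries, so these neighbours were not separated beyond their spread. Cacnb3 was above Cacnb1, Cacnb1 above Cacna2d3 and Cacna2d3 above Cacna2d1 in 16 of 16 libraries each, with overlapping ranges. Dividing the deposited counts by the merged exon length of each gene and by the total count gave a different order. On that scale, CPM per kilobase without TMM, Cacna2d2 came first, at 47.7 ± 4.76 CPM per kilobase in eGFP-GluA2 and 43.9 ± 3.93 in eGFP libraries. Cacnb4 then followed, at 25.9 ± 4.29 in eGFP-GluA2 and 25.9 ± 3.61 in eGFP libraries, and Cacnb2, with 3.18 ± 0.703 in eGFP-GluA2 and 3.47 ± 0.484 in eGFP libraries, fell behind Cacnb3 and Cacnb1. Cacna2d3 and Cacna2d1 kept the lowest places, so which of Cacnb4 and Cacna2d2 is the higher depends on the scale. The scales differ in how reads were quantified as well as in the length used, and these were not separated.

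Within the α2δ family, Cacna2d2 made up most of the TPM. Its share of the summed TPM of Cacna2d1 to Cacna2d4 was 83.7% ± 6.09 in eGFP-GluA2 libraries (72.2% to 90.4%) and 83.4% ± 8.50 in eGFP libraries (69.8% to 92.7%). Cacna2d3 held 8.05% ± 1.80 in eGFP-GluA2 and 8.90% ± 3.56 in eGFP libraries, and Cacna2d1 held 5.39% ± 1.91 in eGFP-GluA2 and 5.03% ± 3.14 in eGFP libraries. Cacna2d4, whose product serves photoreceptor synapses in the retina and which is not among the 7, held 2.84% ± 2.57 in eGFP-GluA2 and 2.66% ± 2.42 in eGFP libraries. Every group of shares overlapped between genotypes. The share of Cacna2d2 moved with the background: it was 90.1% ± 1.78 in the 5 libraries of low background, 86.8% ± 2.48 in the 5 intermediate ones and 75.4% ± 4.32 in the 6 of high background. Over the same steps Cacna2d4 held 0.373%, 1.76% and 5.53%, Cacna2d3 held 5.90%, 7.43% and 11.6%, and Cacna2d1 held 3.60%, 4.03% and 7.48%. The part of the background in these shares was not tested further.

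Within the β family, Cacnb4 led with 74.1% ± 5.83 of the summed TPM in eGFP-GluA2 libraries (63.9% to 82.7%) and 70.5% ± 6.22 in eGFP libraries (60.0% to 77.2%). Cacnb2 held 11.4% ± 3.19 in eGFP-GluA2 and 14.3% ± 4.41 in eGFP libraries. Cacnb3 held 8.45% ± 2.09 and Cacnb1 6.06% ± 1.34 in eGFP-GluA2 libraries, against 9.02% ± 2.19 and 6.15% ± 0.980 in eGFP libraries. These shares also differed by background. At low, intermediate and high background Cacnb4 held 72.8%, 77.9% and 66.7% of the summed TPM, and Cacnb2 held 13.4%, 8.96% and 16.1%. The part of the background in the β shares was not tested. From counts per kilobase the share of Cacnb4 was 50.0% in eGFP-GluA2 and 51.6% in eGFP libraries, and Cacnb3 was second with 24.3% in eGFP-GluA2 and 22.5% in eGFP libraries. Cacnb4 thus led its family on both scales, and Cacna2d2 likewise with 91.3% of the α2δ counts per kilobase in eGFP-GluA2 and 90.7% in eGFP libraries. The summed β level was 128 ± 21.7 TPM in eGFP-GluA2 and 112 ± 23.2 TPM in eGFP libraries, and its ratio to the summed level of the 10 pore-forming subunit genes was 0.713 ± 0.134 in eGFP-GluA2 and 0.701 ± 0.138 in eGFP libraries. The summed α2δ level was 57.7 ± 14.1 TPM in eGFP-GluA2 and 47.8 ± 5.02 TPM in eGFP libraries, with a ratio to the pore-forming genes of 0.314 ± 0.0186 in eGFP-GluA2 and 0.299 ± 0.0298 in eGFP libraries. The difference between genotypes was smaller than 1 SD for both ratios.

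**Figure D2:**
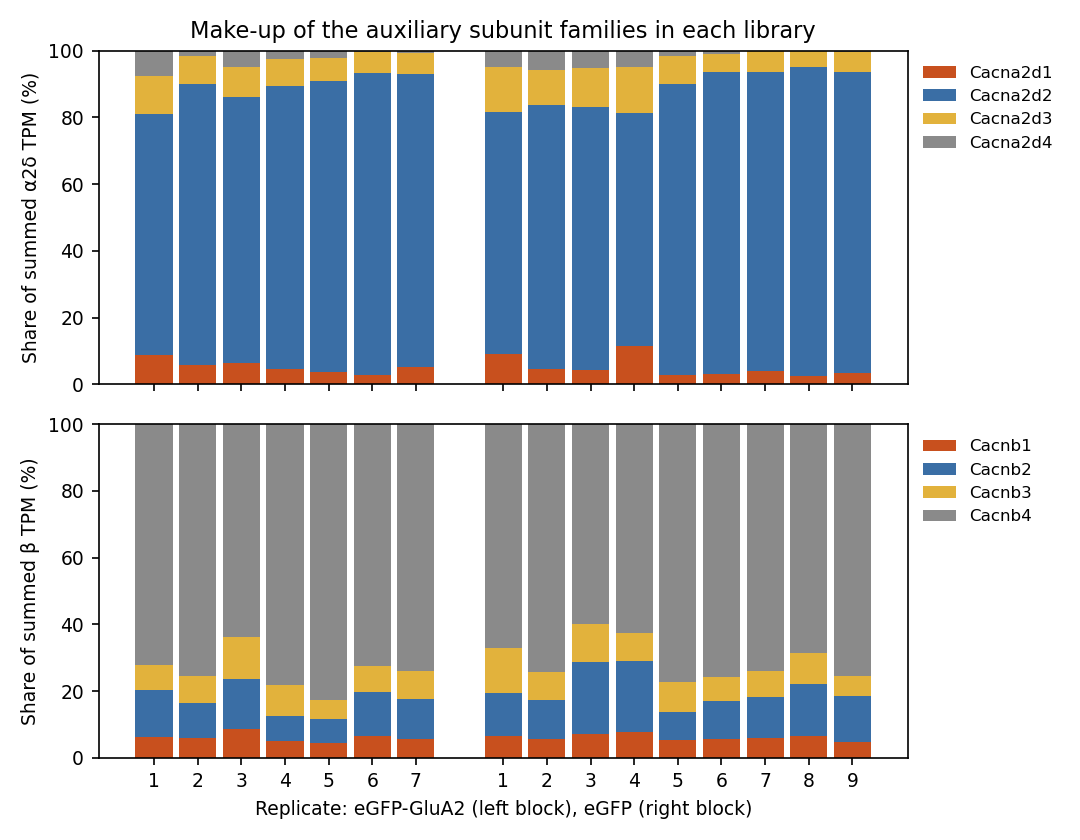
Share of each subunit gene in the summed TPM of its family, in percent, as 1 stacked bar per library, with eGFP-GluA2 libraries left of eGFP libraries in the α2δ panel (top) and the β panel (bottom). Cacna2d2 holds 69.8% to 92.7% of the α2δ sum and Cacnb4 60.0% to 82.7% of the β sum.

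The effect of the genotype on each gene was tested with edgeR's quasi-likelihood test, with p-values adjusted over all 26257 genes by Benjamini-Hochberg and a threshold of 0.05. Of the 7 subunit genes 0 passed, where 1 gene in all passed, 0.00381% of those tested; with the background added as a covariate 0 of 7 passed, against 9 genes or 0.0343%. All 7 had an adjusted p of 1.00 in both fits. At an unadjusted p under 0.05 the count was 1 of 7, against 293 genes (1.12%) over all. Of the 7, 5 had a log2 fold change above 0, with a median of 0.10, and over all genes 45.5% were above 0, with a median of -0.015. DESeq2 also passed 0 of the 7 while passing 14 genes in all. The p-values measure the spread between libraries that the labels number as biological replicates.

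**Figure D3:**
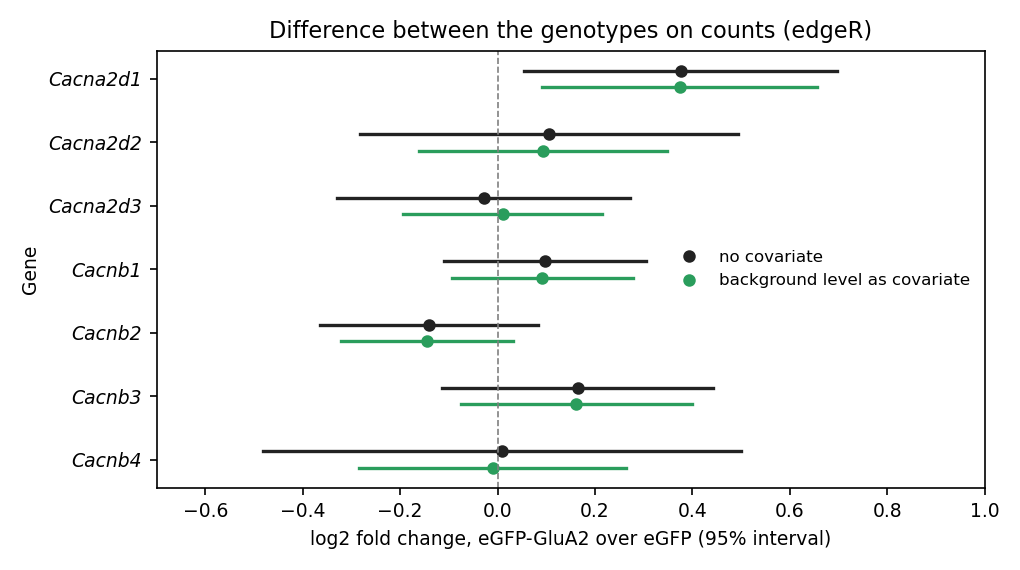
log2 fold change, eGFP-GluA2 over eGFP, of the 7 subunit genes with 95% intervals, from the fit without a covariate and from the fit with the background covariate. The interval of Cacna2d1 lies above 0 in both fits (0.38 and 0.37), those of the other 6 include 0, and 0 of 7 passed after adjustment over all genes.

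Cacna2d1 encodes α2δ-1, the binding site of gabapentin and pregabalin and a receptor for thrombospondins (ENSMUSG00000040118, GRCm38 chr5:15934691-16374511, plus strand). It ran from 13.1 through a median of 14.3 to 20.4 CPM in eGFP-GluA2 libraries, against 7.64 through 12.7 to 15.7 CPM in eGFP libraries. All 7 eGFP-GluA2 libraries were above the median of the eGFP libraries and 3 of them above every eGFP library, but the groups overlapped. The log2 fold change was 0.38 ± 0.15 (SE), a fold of 1.30 with a 95% interval of 1.04 to 1.62, with an unadjusted p of 0.024 and an adjusted p of 1.00 by edgeR. With the background covariate it was 0.37 ± 0.14 (unadjusted p 0.011 by edgeR, where 3.79% of all genes were under 0.05). With the 3 background levels as a block it was 0.46 ± 0.12 (unadjusted p 0.00056 and adjusted p 0.38 by edgeR). DESeq2 gave 0.36 ± 0.18 with an unadjusted p of 0.052. On log2(TPM + 0.5) limma gave 0.37 ± 0.26 with an unadjusted p of 0.17. Among libraries of like background the difference in mean log2 CPM, eGFP-GluA2 minus eGFP, was 0.36 at low, 0.72 at intermediate and 0.29 at high background. It had the same sign at all 3 levels, each resting on 2 to 4 libraries a group. Cacnb1 and Cacnb3 were also above 0 at all 3 levels, and Cacnb4 was below 0 at all 3. The counts of Cacna2d1 are small, 80 to 241 per library. For these, counting error alone gives an SD of 11.2% at the lowest and 6.44% at the highest. In TPM the gene averaged 3.05 ± 1.12 in eGFP-GluA2 and 2.39 ± 1.46 in eGFP libraries, a difference smaller than 1 SD.

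Excitatory neurons in cortex also express Cacna2d1. Of 10 markers of these cells 9 had a log2 fold change above 0 (median 0.19), 0 of 10 passed, and 0 of 10 were at 0 counts throughout; their summed level was 311 to 545 CPM in eGFP-GluA2 and 272 to 533 CPM in eGFP libraries. Slc17a7, the vesicular glutamate transporter VGLUT1, had 45.5 ± 14.6 CPM in eGFP-GluA2 and 30.6 ± 8.95 CPM in eGFP libraries, a log2 fold change of 0.58 ± 0.22 with an unadjusted p of 0.016 by edgeR. With the background and the excitatory markers together as covariates the log2 fold change of Cacna2d1 was 0.14 ± 0.20, and with the excitatory markers alone it was 0.33 ± 0.16. The mean of these markers also followed the background, with 2.60 to 3.19 log2 CPM at low and 3.36 to 3.64 at high background. Slc17a7 went the other way, with a difference of -0.85 log2 units, high minus low. At intermediate background the mean of the markers was 3.42 to 3.65 log2 CPM in eGFP-GluA2 and 3.16 to 3.17 in eGFP libraries. The fit with the excitatory markers alone passed 4469 genes in all. Since the marker mean goes with both background and genotype, these fits cannot separate excitatory neurons from either. The part of excitatory neurons in the Cacna2d1 difference was not tested. Of 8 markers of other interneuron classes 5 were above 0 (median 0.062) and 0 passed; their summed level was 73.6 to 187 CPM in eGFP-GluA2 and 66.5 to 154 CPM in eGFP libraries, and 0 of 8 were at 0 counts throughout. Among them Lamp5 had 8.42 ± 1.78 CPM in eGFP-GluA2 and 5.90 ± 1.02 CPM in eGFP libraries. Its log2 fold change was 0.51 ± 0.14, with an unadjusted p of 0.0020 and an adjusted p of 1.00 by edgeR. Sst (0.48), Npy (0.45), Sncg (0.11) and Vip (0.011) were also above 0, while Cck (-0.18), Calb2 (-0.21) and Ndnf (-0.098) were below. The part of other interneurons in the Cacna2d1 difference was not tested.

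Cacna2d2 encodes α2δ-2 (ENSMUSG00000010066, chr9:107399612-107529343, plus strand). It ran from 247 through 401 to 467 CPM in eGFP-GluA2 libraries, against 203 through 427 to 464 CPM in eGFP libraries. The groups covered nearly the same range. The fold was 1.08 with a 95% interval of 0.823 to 1.41, so folds within that interval are compatible with these values. The interval is not a limit of detection after adjustment over all genes. The log2 fold change of 0.11 became 0.25 on log2(TPM + 0.5) and 0.37 with the excitatory markers as covariate (unadjusted p 0.033, adjusted p 0.094 by edgeR). In that covariate fit 42.2% of all genes had an unadjusted p under 0.05 by edgeR and 4469 passed, so such p-values were common there. With 2648 to 6526 counts per library, counting error was at most 1.94%. The antisense gene Gm17141 shares exon sequence with it and held 2484 counts over the 16 libraries, and strand use in counting is not given. Cacna2d3, the gene for α2δ-3 (ENSMUSG00000021991, chr14:28904943-29721864, minus strand), ran from 15.1 through 17.8 to 21.7 CPM in eGFP-GluA2 libraries, against 11.8 through 18.0 to 26.0 CPM in eGFP libraries. The eGFP range enclosed that of eGFP-GluA2, and the fold was 0.980 with an interval of 0.796 to 1.21. Its log2 fold change was -0.029 ± 0.14 without a covariate and 0.010 ± 0.099 with the background covariate.

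Cacnb4 (ENSMUSG00000017412, chr2:52428320-52676831, minus strand) ran from 136 through 260 to 338 CPM in eGFP-GluA2 libraries, against 140 through 267 to 351 CPM in eGFP libraries. The groups covered the same range, the fold was 1.01 and its interval of 0.716 to 1.41 was the widest of the 7 on the log scale. On log2(TPM + 0.5) its log2 fold change was 0.26, and with the excitatory markers as covariate it was 0.40 (unadjusted p 0.036, adjusted p 0.098 by edgeR). The same covariate fit had 42.2% of all genes at an unadjusted p under 0.05 by edgeR. Cacnb2, the gene for β2, the main β subunit of the heart (ENSMUSG00000057914, chr2:14603088-14987908, plus strand), ran from 35.9 through 41.1 to 48.0 CPM in eGFP-GluA2 libraries, against 35.3 through 42.5 to 58.5 CPM in eGFP libraries. Here 4 of 9 eGFP libraries were above every eGFP-GluA2 library, while the low ends coincided. The log2 fold change was -0.14 ± 0.11 (fold 0.907, interval 0.777 to 1.06), with an unadjusted p of 0.200 by edgeR. Cacnb2 is therefore the member furthest below 0, and it did not pass.

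Cacnb3, the gene for β3, a subunit of neuronal and smooth muscle channels (ENSMUSG00000003352, chr15:98630840-98644529, plus strand), ran from 38.2 through 49.6 to 60.5 CPM in eGFP-GluA2 libraries, against 29.6 through 44.6 to 60.3 CPM in eGFP libraries. The top ends coincided and the lowest values were in eGFP; the fold was 1.12 with an interval of 0.924 to 1.36. Cacnb1, the gene for β1, a subunit of the skeletal muscle channel that is also made in brain (ENSMUSG00000020882, chr11:98001508-98023034, minus strand), ran from 34.4 through 45.5 to 54.6 CPM in eGFP-GluA2 libraries, against 33.6 through 42.4 to 51.5 CPM in eGFP libraries. The groups overlapped nearly throughout, and its interval, a fold of 0.926 to 1.23 around 1.07, was the narrowest of the 7 on the log scale.

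The authors' deposited table of their own comparison gives an adjusted p of 1.00 for all 7. In the authors' deposited table the log2 fold change of Cacna2d1 is 0.20 ± 0.15 (SE) and that of Cacnb2 is -0.20 ± 0.13, the values furthest from 0. The authors' deposited table has the other 5 between -0.013 (Cacnb3) and 0.08 (Cacna2d2 and Cacnb4). The sources do not say whether those values were shrunken. Cacna2d1 and Cacnb3 stand higher in the edgeR fit to the counts, at 0.38 and 0.16.

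The level of several of the 7 followed the background of the library more than the genotype. Cacnb4 averaged 8.27 log2 CPM at low background (n = 5), 8.10 at intermediate (n = 5) and 7.28 at high background (n = 6). Cacna2d2 averaged 8.79, 8.72 and 8.06 over the same steps, and Cacnb2 averaged 5.67, 5.39 and 5.32. For these 3 genes the libraries of low and high background did not overlap in TMM-scaled log2 CPM. Cacna2d3 went the other way, with 3.88, 4.23 and 4.38 log2 CPM, again without overlap between low and high. Pvalb, the parvalbumin gene, and Cacna2d4 did not overlap either. The share of all tested genes without overlap was not counted, so these separations are not read as a trait of the subunit genes. Cacnb1 and Cacnb3 were highest at intermediate background (5.64 and 5.86 log2 CPM), and Cacna2d1 was 3.83 at low and 3.82 at high background. That likeness holds with TMM only. In TPM Cacna2d1 averaged 2.25 at low, 1.85 at intermediate and 3.72 at high background, with low and high libraries overlapping. With library size alone its difference, high minus low, was 0.53 log2 units.

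These differences depend on how libraries are scaled. In TPM the low and high libraries overlapped for all 4 genes, Cacnb4 for example with 49.4 to 84.2 TPM at high and 72.5 to 116 TPM at low background, and with library size alone they overlapped for Cacna2d2 and Cacnb2. TMM factors ran from 0.805 to 1.45 and were above 1.2 in 5 of the 6 libraries of high background. The median of all tested genes itself differed between high and low background by 0.16 log2 units with TMM, 0.22 with median-of-ratios scaling, -0.50 with upper-quartile scaling and 0.68 with library size alone. Relative to that median the difference of Cacnb4 was -1.15 with TMM and -1.19 to -1.12 over the 4 scalings. That of Cacna2d2 was -0.89 (-0.93 to -0.86), that of Cacnb2 -0.51 (-0.55 to -0.48) and that of Cacna2d3 0.34 (0.31 to 0.37). Cacnb1 stood at -0.42, Cacnb3 at -0.43 and Cacna2d1 at -0.17, so Cacna2d3 alone of the 7 lay above the median gene. A scaling factor moves every gene of a library alike and largely cancels in these relative differences. Their likeness over the 4 scalings is therefore no separate check. Without that reference the sign is not fixed for all: with library size alone the difference of Cacnb2 was 0.19, and with upper-quartile scaling that of Cacna2d3 was -0.19. Pvalb, the marker that names these cells, had a relative difference of -1.69 and Cacna2d4 of 3.35. The background was not assigned by the design, so these are descriptions with no test, and what it stands for was not tested.

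**Figure D4:**
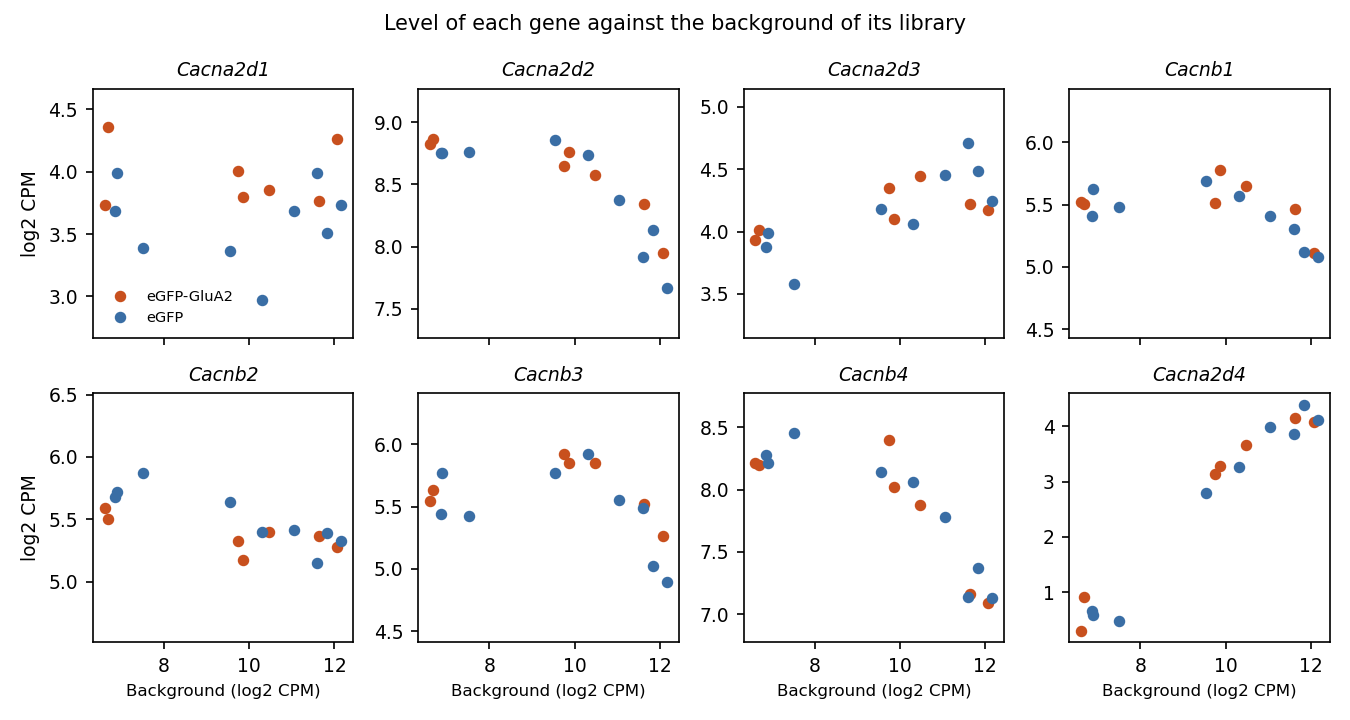
log2 CPM of the 7 subunit genes and Cacna2d4 against the background of each library (log2 of the summed CPM of olfactory and vomeronasal receptor genes); each point is a library, coloured by genotype, and each panel has its own vertical range. Cacnb4 and Cacna2d2 are lower in the libraries of high background (7.28 against 8.27 and 8.06 against 8.79 log2 CPM at low background), and Cacna2d3 is higher (4.38 against 3.88).

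Within each level of background the genotype difference in mean log2 CPM, eGFP-GluA2 minus eGFP, lay between -0.28 and 0.18 for 6 of the 7 genes. It ran from -0.14 to 0.12 for Cacna2d2, from -0.28 to 0.18 for Cacna2d3 and from -0.22 to 0.00026 for Cacnb2. It ran from 0.0081 to 0.062 for Cacnb1, from 0.030 to 0.15 for Cacnb3 and from -0.23 to -0.0016 for Cacnb4. Each of these values rests on 2 to 4 libraries a group. The groups did not overlap for Cacna2d3 at high background (-0.28), nor for Cacna2d2 (0.094) and Cacnb2 (-0.21) at low background. Cacna2d1, with 0.29 to 0.72, was without overlap at intermediate background only. With 2 to 4 libraries a group such separations often arise by chance, and their share over all genes was not counted. They are therefore not read as results about these genes.

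The genes with the most similar pattern to each member were found by Pearson's r over the 16 libraries, from log2 CPM with the group and the background removed, among 10943 genes with a mean log2 CPM of at least 3. They are the highest of many correlations and are given as a description. Ppp3cb and Apc were among the nearest to Cacnb4 (r 0.992 and 0.991), and Cntnap1, Ttyh3 and Mapk1ip1 to Cacna2d2 (0.973 to 0.979). Timm44, Acap3 and Dgkz were nearest to Cacnb3 (0.954 to 0.973), and Ppfia4, Nfyc and Nacad to Cacnb1 (0.954 to 0.966). These 4 members kept a shared bend after the straight-line adjustment, with a mean residual of 0.19 to 0.32 log2 units at intermediate background and below 0 at low and high background, so libraries of 1 background level still move together in these values. Cacna2d1 kept a bend the other way, with a mean residual of -0.22 at intermediate background and 0.069 and 0.12 at low and high background. The correlations were lower for the other 3 members: Arpp21, Ptk2b and Pdgfb for Cacna2d1 (0.768 to 0.878), Dnah10, Tfr2 and Zfas1 for Cacna2d3 (0.778 to 0.784), and D1Ertd622e, Zfp518a and Ikzf2 for Cacnb2 (0.769 to 0.812).

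The pore-forming genes that these subunits serve showed no call either: 10 of 10 were tested, 0 passed, 6 had a log2 fold change above 0 and the median was 0.06. Cacna1a, the pore of P/Q-type channels, had the highest level, 81.6 ± 21.3 TPM in eGFP-GluA2 and 68.9 ± 11.0 TPM in eGFP libraries, with a log2 fold change of 0.17 ± 0.17. Cacna1b, the pore of N-type channels, had 26.9 ± 9.15 TPM in eGFP-GluA2 and 22.7 ± 2.70 TPM in eGFP libraries. The smallest unadjusted p-values by edgeR were 0.103 for Cacna1h, a T-type pore (log2 fold change 0.21 ± 0.12), and 0.128 for Cacna1e, the R-type pore (-0.23 ± 0.14).

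Of 20 partners of the channel and its auxiliary subunits, all 20 were tested, 0 passed, and 9 had a log2 fold change above 0 with a median of -0.0020. With the background covariate 0 passed, 14 were above 0 and the median was 0.12. Over all genes in that fit 53.1% were above 0, with a median of 0.011. Cbarp, which binds β subunits and lowers channel activity, had 47.8 ± 11.6 TPM in eGFP-GluA2 and 41.1 ± 6.32 TPM in eGFP libraries (log2 fold change 0.21 ± 0.21). Rims2, an active zone protein that binds β subunits, had 42.8 ± 12.4 TPM in eGFP-GluA2 and 39.6 ± 6.73 TPM in eGFP libraries. Thbs2, a thrombospondin and so of the family of ligands of α2δ-1, had the smallest unadjusted p by edgeR, 0.086, with a log2 fold change of 0.21 ± 0.11. Next came Rimbp2, which links presynaptic channels to the release machinery, with an unadjusted p of 0.317 by edgeR and a log2 fold change of 0.12 ± 0.12.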

How the data were processed

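RNA-seq libraries of sorted cortical PV interneurons were compared by genotype. The authors ran bcbio-nextgen 1.2.3, per the series' design text: they aligned reads to GRCm38 with STAR, used Sailfish with the Ensembl annotation and tested with DESeq2. The deposited table holds whole-number counts per gene; the counting tool behind it is not stated. The authors also deposited TPM values, and a table of signal values (counts divided by size factors) with their log2 fold change, a test statistic (score) and p-values. Of those signal values 100% were whole multiples of a single read within a tolerance of 0.001 and gave 10477517 to 17382059 reads per library, which were tested as an alternative, where 3 genes passed.

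Identifiers were named from GENCODE M21 (54495 of 54532). edgeR 4.0.16 was fitted to all 16 libraries (TMM, filterByExpr with the group, robust quasi-likelihood, no covariate), keeping 26257 genes with 99.2% of counts; limma 3.58.1, DESeq2 1.42.0 and sva 3.50.0 served alternatives. The code was tested on simulated data. All 7 members passed the filter. CPM used TMM library sizes; log2 CPM had a prior count of 2. Intervals are 95% intervals of the fit. Counting errors cover counting only. Named genes are all members, and of the pore-forming and partner lists those that passed or, with none, the 2 of smallest p, and the 2 of highest mean TPM. For each member the 3 genes of most similar residual pattern were named, except 1 that is not reported here. Members and lists were chosen with earlier results of these data known. Promoter sequences are from RefSeq (GRCm38.p6). No 2 libraries had identical counts.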

Additional observations from a re-analysis of the deposited data

Results flagged for a closer look

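Among 28 sets of 7 or 9 values checked (each member's TPM and log2 CPM in each group), 1 library stood apart: the TPM of Cacnb3 in eGFP replicate 1 was 16.9, far above the other 8 eGFP libraries by the gap to the nearest of them, which was 0.584 of the whole range. The deposited count of Cacnb3 in that library was 508 (44.6 CPM), inside the range of the other eGFP libraries. Chance flags about 1 in 20 such groups.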

How the results depend on the processing

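No member passed the threshold under any of the alternatives run. The lowest adjusted p of a member by edgeR was 0.054, for Cacna2d3 with the excitatory marker covariate (log2 fold change -0.25 ± 0.086). That fit passed 4469 genes in all. With background and excitatory markers together Cacna2d3 was -0.27 ± 0.13. Cacna2d1 stayed above 0 in all 21 alternatives (0.14 to 0.47) and in all 16 fits that left out 1 library (0.29 to 0.43). The direction of the members near 0 depended on the setting, with log2 fold changes as follows. Cacna2d3 was 0.0024 with limma-voom, 0.15, 0.17 and 0.13 with limma on log2(TPM + 0.5), log2(TPM + 0.1) and log2(TPM + 1), 0.15 on log2(TPM + 0.5) with no filter, 0.05 on recovered reads, 0.010 with the background covariate, 0.016 with background tiers, 0.0046 with 1 surrogate variable and 0.24 without the high-background libraries. Cacnb4 was -0.0070 with DESeq2, -0.0069 with RLE scaling, -0.010 with the background covariate, -0.11 with background tiers, -0.0020 with 1 surrogate variable and -0.068 without the high-background libraries, where Cacna2d2 was -0.011. Cacnb3 was -0.0042 on recovered reads. With the excitatory marker covariate Cacnb2 was 0.024, and with background and excitatory markers together Cacnb1 was -0.021, Cacnb2 0.020 and Cacnb3 -0.010. Leaving out 1 library gave 0.037 to 0.18 for Cacna2d2, -0.095 to 0.041 for Cacna2d3, 0.061 to 0.14 for Cacnb1, -0.18 to -0.093 for Cacnb2, 0.11 to 0.21 for Cacnb3 and -0.066 to 0.10 for Cacnb4, with 1 gene past the threshold over all genes each time. On TPM (log2(TPM + 0.5)) Cacna2d2 was 0.25 and Cacnb4 0.26, and with the excitatory marker covariate they were 0.37 and 0.40. The causes were not tested.

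The count over all genes, 1 in the fit reported, was 14 with DESeq2 (7 higher and 7 lower), 2 with upper-quartile scaling and with library size alone, 2, 3 and 2 with limma on log2(TPM + 0.5), log2(TPM + 0.1) and log2(TPM + 1), 2 with no filter on TPM, 3 on recovered reads, 9 with the background covariate, 11 with background tiers, 9 with 1 surrogate variable, 4469 with the excitatory marker covariate, 2 with background and excitatory markers and 3 without the high-background libraries. From counts per kilobase, 2 of 7 members kept their rank in each group, and shares were 2.48% for Cacna2d1 and 91.3% for Cacna2d2 in eGFP-GluA2. For the others they were, in eGFP-GluA2 and then in eGFP, 4.04% and 4.66% for Cacna2d3, 19.5% and 18.9% for Cacnb1, 6.16% and 6.97% for Cacnb2, 24.3% and 22.5% for Cacnb3, and 50.0% and 51.6% for Cacnb4.

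Replicate numbers are shared between the groups, and same-numbered libraries correlated from -0.04 to 0.904, 6 of 7 pairs above 0.1. Not every library correlated best with its own number. The number also goes with the background in both groups (high in replicates 1 to 4 only, low in replicates 6 to 9 only), and no label says what it stands for, so the numbers were not taken as pairs. With the replicate block 7 genes passed, and with the replicate block and background covariate 4, where Cacnb4 was -0.023; 0 members passed under either.

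Depth limits Cacna2d1 and Cacna2d3 most (from 80 and 124 counts). Cells were sorted on eGFP-GluA2 in the altered genotype and on eGFP in controls, so genotype and gate cannot be told apart. Scalings of the background differences were chosen after seeing the data. The relative differences kept their sign under all 4, which follows largely from how they are formed, since a scaling factor cancels in them.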
